A study of Homo sapiens with 6 samples.

Results

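Interferon-stimulated genes were followed in quiescent hTERT RPE1 cells treated with combretastatin A4 (CA4), a compound that occupies the colchicine site of tubulin and depolymerizes microtubules. hTERT RPE1 is an established human cell line derived from retinal pigment epithelium and immortalised with telomerase. The cells were held for 5 days at 100% confluency, which takes them out of the cell cycle, and then received fresh medium with 100 nM CA4 or 0.1% DMSO, the solvent, for 6 hours. PolyA RNA was sequenced from 3 libraries of each group, numbered 1 to 3 in the labels. Nothing in the labels says whether the 3 libraries of a group came from separate cultures, so the spread between libraries may be technical. The p-values below set each group difference against a spread estimated from these libraries and moderated over all tested genes. All 6 libraries come from 1 cell line, at 1 dose and 1 time.

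The set consists of 39 genes known to be induced by interferon, picked by symbol out of 38900 gene IDs measured, and the question was whether the rise of inflammatory genes after CA4 extends to them. All 39 symbols had a row. Values are normalized counts, gene reads after the authors' scaling of each library, and 1 read is worth between 0.935 and 1.12 of them. In this comparison 33 of the 39 reached a mean of 10 normalized counts over the 6 libraries and were tested, among 13928 genes in all. The other 6, IFI27, IRF7, MX2, OAS2, OASL and XAF1, stayed at or below 22.3 normalized counts in every library.

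Interferons are secreted proteins that cells release when they sense viral or misplaced nucleic acid. Type I interferon binds the receptor IFNAR1-IFNAR2, and the kinases JAK1 and TYK2 then activate the complex ISGF3, which holds STAT2 and the DNA-binding protein IRF9. ISGF3 binds a promoter sequence called the interferon-stimulated response element (ISRE), while type II interferon acts through the gamma-activated site (GAS). Many of the genes below also have a low basal expression without added interferon, kept up by small amounts of the ligand or by IRF9 complexes that form without it. NF-kB, the factor behind much inflammatory gene expression, binds a different sequence.

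The promoters of the set are shown first, because binding of ISGF3 to the ISRE is how interferon reaches many of these genes. The core searched was GAAA, any 2 bases and GAAA again, on both strands, from 250 bases before to 50 bases after each RefSeq transcription start (GRCh38.p14). It occurred in 22 of the 32 members with a promoter sequence, 68.8%, against 3.57% of all 35116 promoter windows and 3.93% of the tested genes that have one. No window was supplied for IFIT2, OAS2, OASL, IFITM2, MX2, TRIM22 and IRF7. Capitals mark each core in the stretches below, which are written 5′ to 3′ on the strand of the gene and lie upstream of a RefSeq start. IFIT1 and IFIT3 are shown for their separate cores and their non-overlapping groups, IFI44L, IFI44, PARP14 and PARP9 because they were called lower after CA4, and TAP1, IFI6 and B2M as members with cores that were not.
IFIT1, chr10:89392492-89392544, plus strand: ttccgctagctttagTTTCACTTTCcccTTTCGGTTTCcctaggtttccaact
IFIT3, chr10:89332420-89332502, plus strand: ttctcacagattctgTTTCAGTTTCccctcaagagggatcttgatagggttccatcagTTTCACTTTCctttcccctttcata
IFI44L, chr1:78620269-78620399, plus strand: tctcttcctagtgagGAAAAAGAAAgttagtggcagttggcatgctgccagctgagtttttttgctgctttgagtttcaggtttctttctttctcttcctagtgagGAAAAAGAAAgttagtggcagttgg
IFI44, chr1:78649756-78649788, plus strand: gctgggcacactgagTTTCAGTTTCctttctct
PARP14, chr3:122680800-122680829, plus strand: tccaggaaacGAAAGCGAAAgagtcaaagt
PARP9, chr3:122564322-122564351, minus strand: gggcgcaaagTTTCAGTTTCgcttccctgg
TAP1, chr6:32853815-32853846, minus strand: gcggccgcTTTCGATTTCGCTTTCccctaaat
IFI6, chr1:27672261-27672363, minus strand: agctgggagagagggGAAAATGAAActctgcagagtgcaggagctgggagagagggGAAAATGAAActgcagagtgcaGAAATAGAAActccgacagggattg
B2M, chr15:44711358-44711403, plus strand: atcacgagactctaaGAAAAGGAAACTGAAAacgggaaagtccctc

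In GENCODE 29, the stretches of IFI44 and B2M lay outside any gene and those of IFIT1 and IFI6 in no exon, within the spans of LIPA and AL445490.1. The other 5 lay inside the span of their own gene, which has an earlier annotated start there. The stretches of PARP14 and TAP1 fell in exons of these genes and that of PARP9 in the first exon of its neighbour DTX3L, in each case almost wholly in the untranslated region. Those of IFIT3 and IFI44L touched an exon with 19 and 18 bases. IFIT3 has a second RefSeq start upstream, whose window holds 2 further cores at chr10:89327841-89327850 and chr10:89327875-89327884 that are not printed. In TAP1 and B2M the 2 cores overlap. In IFI44L both cores have the same letters, and the flanking bases are repeated with them. A match is a description of the letters and was not tested as a binding site.

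The libraries held between 19524936 and 22538004 recovered reads. As a check of the labelled cell type, VIM, KRT8 and KRT18 were abundant, with at least 8393 normalized counts in every library. TERT, the gene of the telomerase subunit that immortalizes the line, rose (log2 fold change 1.53, limma adjusted p = 0.0272). Of 10 pigment epithelium markers OTX2 and MITF were well expressed, RPE65 stayed at or below 40.8 normalized counts and TYR, RLBP1 and LRAT at or below 5.70. OTX2 fell (log2 fold change -1.11, limma adjusted p = 0.0158), and the summed level of the 10, most of it from OTX2 and MITF, was 1312 to 2006 in DMSO and 818 to 1205 in CA4. The median log2 fold change of the 7 tested was -0.03, and PMEL, SERPINF1 and RDH5 were fitted higher without passing. Of 4 fibroblast markers PDGFRA fell (-1.28, limma adjusted p = 0.0147), with summed levels of 35844 to 63867 and 26370 to 53337. The part of these shifts in the results below was not tested. The leukocyte markers CD3E, ITGAM and HLA-DRA were at 0 in all libraries, as were CLEC4C and LILRA4 of plasmacytoid dendritic cells, the main interferon producers in blood. HLA-DRA, LILRA4 and PTPRC also have transcripts on alternate versions of their loci, counted under other IDs, so their zeros and low values may be partial. Other markers of these lists were detected. The summed level of the leukocyte list, nearly all from CD68, was 739 to 941 normalized counts in DMSO and 541 to 749 in CA4. LYZ was at 16.4, 15.9 and 18.0 and then 30.9, 21.3 and 32.3, and PTPRC at 3.86, 2.80 and 2.85 and then 10.6, 4.49 and 5.57, both with every CA4 library above DMSO. The summed level of the plasmacytoid list, nearly all from TCF4, was 1326 to 1584 and 1187 to 1534, and IL3RA was at 19.3, 2.80 and 18.0 and then 20.3, 21.3 and 46.8, also without overlap. Limma, edgeR and DESeq2 called no gene of either list, none had an unadjusted limma p under 0.05, and their part in the results was not tested.

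After 6 hours of CA4, 5 of the 33 tested members fell and none rose. They were IFI44L (ENSG00000137959) and IFI44 (ENSG00000137965), SAMD9L (ENSG00000177409), PARP9 (ENSG00000138496) and PARP14 (ENSG00000173193), at an adjusted p of 0.05 or less in limma's moderated test over all 13928 genes. The share called lower, 15.2%, compares with 1.97% of all genes tested, and with 4.94% of genes called in either direction. No member was among the 2.97% of genes called higher. The fitted change was below 0 in 25 of 33 members, against 51.1% of all genes. Their median log2 fold change was -0.40, against -0.01 for all genes. All 3 CA4 libraries lay below all 3 DMSO libraries in 15 members, against 13.4% of all genes, and in no tested member did all 3 lie above, against 14.3%. An unadjusted p under 0.05 was reached by 15 members, against 23% of all genes.

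**Figure D1:**
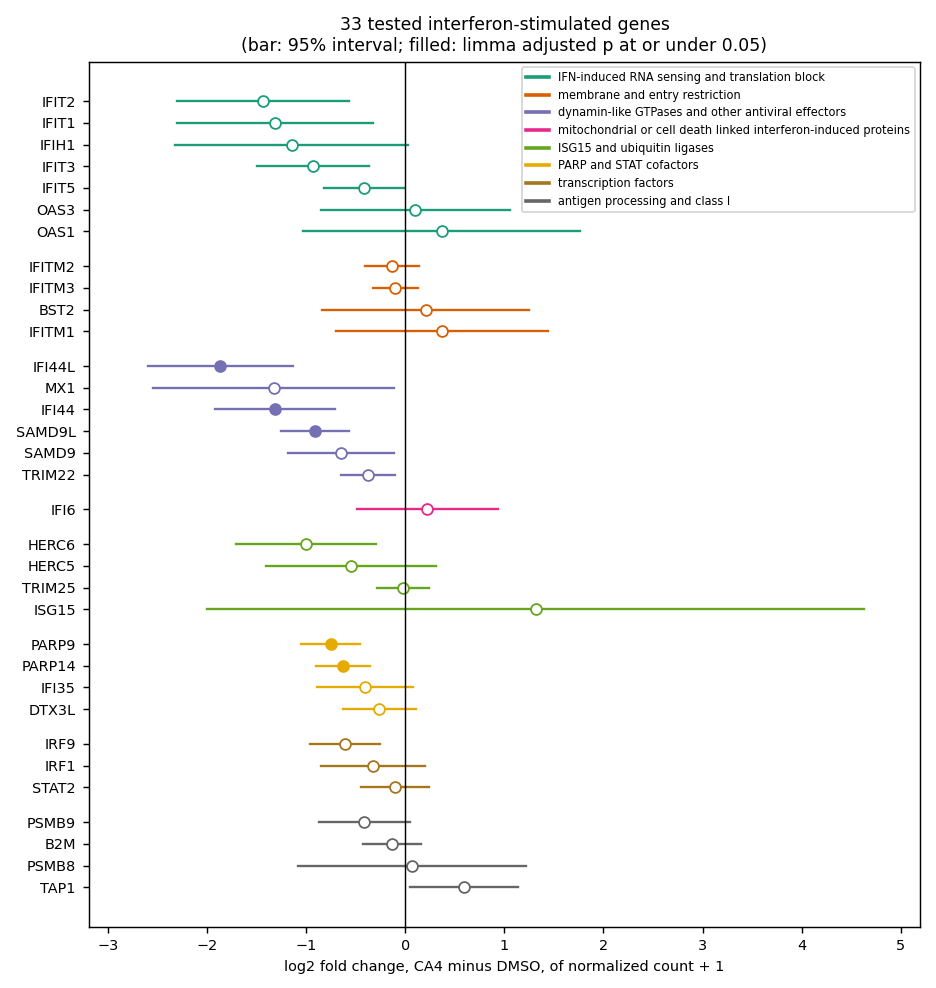
Log2 fold change of each of the 33 tested members, CA4 minus DMSO, on the scale log2(normalized count + 1), with limma's 95% interval, grouped by role. Filled points passed an adjusted p of 0.05: IFI44L, IFI44, SAMD9L, PARP9 and PARP14, all below 0. The point for ISG15 rests on 1 library listed at 0 and is not read as a fold change.

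The calls depended on the libraries in the fit. Leaving out CA4 replicate 1, CA4 replicate 3, DMSO replicate 2 or DMSO replicate 3 left 0 members called, while all calls fell from 688 to between 84 and 156. Without DMSO replicate 1 the same 5 were called lower and TAP1 higher, and without CA4 replicate 2 there were 5, with PARP9 lost. The 5 called members stayed lower in each of these fits. Without limma's variance trend only PARP9 was called. In whole cultures, fewer cells that express a gene and less RNA per cell cannot be told apart.

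Most calls were among the dynamin-like GTPases and other antiviral effectors, 7 genes of which 6 were tested. All 6 had every CA4 library below every DMSO library, against 13.4% of all genes. Of these 6, 3 were called, against 1.97% of all genes called lower, and the median log2 fold change was -1.11. IFI44L and IFI44 are neighbouring genes on chromosome 1 (chr1:78619922-78646145 and chr1:78649796-78664078, plus strand, GRCh38) that encode related interferon-induced proteins. IFI44L had 179.6, 137 and 194 normalized counts in the DMSO libraries, in the order of their numbers, and 38.7, 71.8 and 33.4 after CA4. Each CA4 library was far below the lowest DMSO library, with replicate 2 the highest of the 3. The mean fell from 170.3 ± 29.3 to 48.0 ± 20.8 (SD, n = 3 each), 27.3% of DMSO on the fitted scale (log2 fold change -1.87, SE 0.31, limma adjusted p = 0.0215). IFI44 had 111, 124 and 151 in DMSO and 37.7, 66.2 and 52.4 in CA4, again with no overlap. Its log2 fold change was -1.31 (SE 0.26, limma adjusted p = 0.0347).

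SAMD9L and SAMD9 are paralogous cytoplasmic proteins that restrict poxviruses and slow cell growth, encoded side by side on chromosome 7. SAMD9L (chr7:93130055-93148369, minus strand) had 705, 639 and 702 normalized counts in DMSO and 359.5, 434 and 303 in CA4. Its mean fell from 682 ± 37.5 to 366 ± 65.7 (SD, n = 3 each; log2 fold change -0.91, SE 0.15, limma adjusted p = 0.0198), the smallest adjusted p of the set. No ISRE core was found in the SAMD9L window, whereas the SAMD9 window holds 1. SAMD9 had 148, 155 and 132 in DMSO and 97.6, 117 and 68.0 in CA4. Its groups did not overlap either, but the change did not pass (log2 fold change -0.65, 95% interval -1.18 to -0.11, limma adjusted p = 0.148).

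TRIM22, a RING-domain protein that represses viral transcription, had 1139, 1417 and 1201 normalized counts in DMSO and 903, 1068 and 918 in CA4. This was the smallest fitted change among the 15 members whose groups did not overlap, -0.38 on the log2 scale (SE 0.12, limma adjusted p = 0.109). MX1, a GTPase that traps viral nucleoproteins, was near the limit of measurement, with 19.3, 9.35 and 24.7 with DMSO and 4.83, 5.61 and 7.80 with CA4. The groups did not overlap (log2 fold change -1.33, 95% interval -2.55 to -0.11, limma adjusted p = 0.185), and the CA4 values rest on 5, 5 and 7 reads. Its paralog MX2 had at most 3.80 normalized counts in any library.

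**Figure D2:**
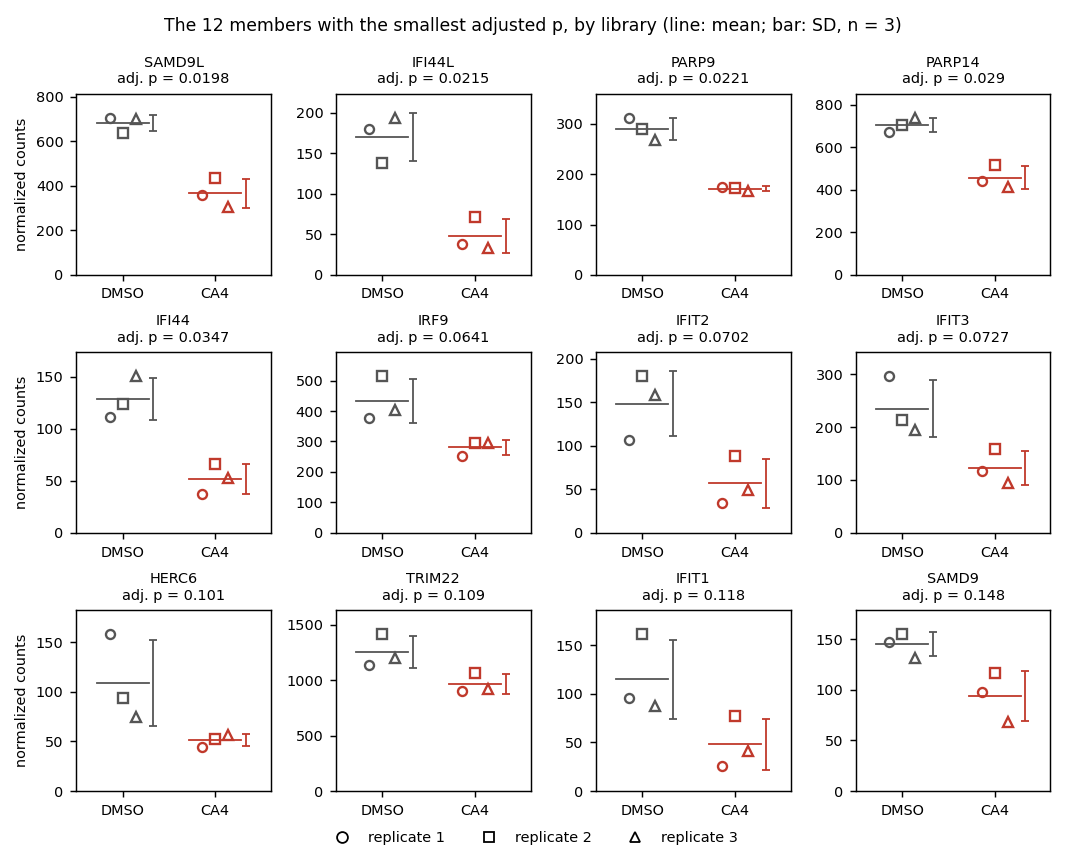
Normalized counts of the 12 members with the smallest adjusted p in each of the 6 libraries, with symbols for replicates, a line at the mean and a bar for the SD (n = 3). In all 12 panels the 3 CA4 libraries lie below the 3 DMSO libraries, and CA4 replicate 2 is the highest of its group in most of them.

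Of the PARP and STAT cofactors, 2 of 4 fell, against 1.97% of all genes called lower. PARP9 forms a complex with the ubiquitin ligase DTX3L that acts on histones, and PARP14 is a large mono-ADP-ribosyltransferase that modulates STAT signalling. PARP9 (chr3:122527924-122564577, minus strand) had 312, 289.8 and 269 normalized counts in DMSO and 175, 173 and 166 after CA4, where its SD was the smallest of the called members. Its mean fell from 290.2 ± 21.6 to 171 ± 4.62 (SD, n = 3 each; log2 fold change -0.75, SE 0.13, limma adjusted p = 0.0221). PARP14 (chr3:122680618-122730840, plus strand) had 672, 703 and 739 in DMSO and 441, 516 and 411 in CA4 (log2 fold change -0.63, SE 0.12, limma adjusted p = 0.029).

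PARP9 and DTX3L are transcribed away from each other, and the windows of both contain the same ISRE core, at chr3:122564332-122564341, 41 bases before the PARP9 start and 6 before that of DTX3L. DTX3L had overlapping groups, at 585, 543 and 462 in DMSO and 469, 502 and 362 in CA4 (log2 fold change -0.26, 95% interval -0.63 to 0.11, limma adjusted p = 0.372). That interval overlaps the PARP9 interval of -1.06 to -0.45, and the difference between the 2 genes was not tested. IFI35, a partner of NMI in interferon-induced cytoplasmic complexes, was at 129.9 ± 25.4 normalized counts with DMSO and 96.9 ± 9.63 with CA4 (SD, n = 3 each; log2 fold change -0.40, limma adjusted p = 0.298).

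Of the proteins that sense or block foreign RNA, 7 of 9 genes were tested and limma and edgeR called none, with a median log2 fold change of -0.93. The unadjusted limma p was under 0.05 in 4 of the 7, against 23% of all genes. DESeq2 called IFIT2 and IFIT3 lower (adjusted p = 0.00891 and 0.0125, with 5.39% of all genes called lower by that tool). The IFIT proteins bind viral RNA or the translation factor eIF3, and their genes lie together on chromosome 10 (89283694 to 89421001). IFIT2 had 107, 180.4 and 159 normalized counts in DMSO and 33.8, 88.6 and 49.0 in CA4, with no overlap (log2 fold change -1.44, SE 0.37, limma adjusted p = 0.0702). IFIT1, whose promoter has the 2 cores printed above, had 95.6, 162 and 87.4 in DMSO and 26.1, 77.4 and 41.2 in CA4. In both groups replicate 2 was its highest library, and the log2 fold change was -1.32 (SE 0.42, limma adjusted p = 0.118). IFIT3 had 296, 213 and 195 in DMSO and 117, 158 and 94.7 in CA4, where replicate 1 was the highest in DMSO and replicate 2 in CA4 (log2 fold change -0.93, SE 0.24, limma adjusted p = 0.0727). IFIT5 went from 391 ± 44.4 to 295 ± 61.4 (SD, n = 3 each) with overlapping groups. All 4 genes of the cluster were fitted lower, against 51.1% of all genes, and 3 were lower in every CA4 library, against 13.4%.

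IFIH1 (MDA5), a cytoplasmic sensor of long double-stranded RNA, had 92.7, 125 and 103 normalized counts in DMSO and 24.2, 39.3 and 110.3 in CA4. CA4 replicates 1 and 2 were below every DMSO library and replicate 3 was within their range, which leaves a log2 fold change of -1.15 with a 95% interval of -2.32 to 0.03 (limma adjusted p = 0.229). Without CA4 replicate 3 the fitted value was -1.75. The oligoadenylate synthetases, whose products activate RNase L, were not called. OAS1 had 16.9 ± 13.0 in DMSO and 19.9 ± 8.34 in CA4, and OAS3 197 ± 85.7 and 216 ± 100.0 (SD, n = 3 each; limma adjusted p = 0.767 and 0.918). OAS2 was too low to be tested, at 2.90, 3.74 and 1.90 in DMSO and 8.70, 4.49 and 7.80 in CA4, and was the only untested member with every CA4 value above every DMSO value, though replicate 2 had 4 reads in either group. OASL had at most 2.90 in any library.

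ISG15, a ubiquitin-like modifier, and the ligases HERC5, HERC6 and TRIM25 gave no call by limma or edgeR, whereas DESeq2 called HERC6 lower (adjusted p = 0.0363), the one with an unadjusted limma p under 0.05. HERC6 had 158, 93.5 and 75.02 normalized counts in DMSO and 44.5, 52.7 and 56.8 in CA4 (log2 fold change -1.01, SE 0.30, limma adjusted p = 0.101). The groups did not overlap, and DMSO replicate 1 stood well above the other DMSO libraries. HERC5, the main human ISG15 ligase, was low but also without overlap, at 18.7 ± 2.23 and 12.4 ± 1.87 (SD, n = 3 each; limma adjusted p = 0.419). TRIM25 was at 1188 ± 99.6 and 1168 ± 124 (95% interval of the log2 fold change -0.29 to 0.24). ISG15 itself was listed at 60.8, 0 and 36.1 with DMSO and 40.6, 41.5 and 18.9 with CA4. The 0 in DMSO replicate 2 sets its fitted value, so no fold is given, and edgeR and DESeq2 on the recovered reads gave adjusted p-values of 0.979 and 0.984.

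Among the transcription factors, IRF9, the DNA-binding subunit of ISGF3, had 379, 515 and 404 normalized counts with DMSO and 253, 296 and 294 with CA4. The groups did not overlap, but the change missed the threshold (log2 fold change -0.61, SE 0.15, limma adjusted p = 0.0641). Of the annotated exon bases of IRF9, 48.4% are shared with a second gene model on the same strand, AL136295.5, and how the authors' counting divided such reads is not given in the sources used here. The sum of both was 486 ± 70.5 with DMSO against 346 ± 40.1 with CA4 (SD, n = 3 each), and the log2 difference was -0.49. STAT2, its partner in the complex, was at 2613 ± 487 and 2411 ± 201 (95% interval of the log2 fold change -0.44 to 0.24). IRF1, which responds to both interferon and NF-kB, went from 486 ± 145 to 379 ± 60.4 with overlapping groups (limma adjusted p = 0.433), and 22% of its exon bases overlap C5orf56 on the opposite strand. IRF7, the amplifier of type I interferon, was listed at 0 in all 6 libraries.

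Of the 4 genes of antigen processing limma, edgeR and DESeq2 called none, 1 had an unadjusted limma p under 0.05, and their median log2 fold change was -0.03. TAP1, the peptide transporter, had 296, 174 and 158 normalized counts in DMSO and 301, 314 and 294 in CA4. DMSO replicate 1 lay among the CA4 values and the other DMSO libraries lay below them, and the change did not pass (log2 fold change 0.59, SE 0.24, limma adjusted p = 0.189). Without DMSO replicate 1 it was 0.87 with a limma adjusted p of 0.0213, the only call of a higher member in any of the fits. PSMB9, an immunoproteasome subunit whose start neighbours that of TAP1, lay below DMSO in every CA4 library, at 108 ± 10.6 and 80.9 ± 11.5 (SD, n = 3 each; log2 fold change -0.42, limma adjusted p = 0.261). PSMB8, another subunit, was at 13.3 ± 5.83 and 13.2 ± 3.07. B2M, the light chain of class I molecules, was at 13975 ± 2136 and 12676 ± 1292 (95% interval of the log2 fold change -0.43 to 0.16).

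IRF7, IRF9, IFI27, B2M, TAP1, PSMB8 and PSMB9 also have transcripts on alternate versions of their loci in GENCODE 29. The deposited table has 2501 IDs outside the primary assembly, with 1.53% to 1.70% of the normalized counts, and reads counted under those IDs could not be added to these genes. Their levels, and the zeros of IRF7, may therefore be partial. None of the 5 called members is among them. The same limit holds for genes of the class I list used below, such as TAP2, TAPBP, PSME1, PSME2 and CANX, and for SERPINF1, IFNGR2, CCL5 and IER3 of the other lists. Reads from the opposite strand, if counted, could also enter PSMB8, XAF1 and IFITM3, which share 20.6%, 38.3% and 21.3% of their exon bases with PSMB8-AS1, PRAL and AC136475.5.

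None of the 4 membrane proteins that block viral entry or release was called by limma, edgeR or DESeq2 or had an unadjusted limma p under 0.05, and their median log2 fold change was 0.05. IFITM3, the most studied of them, was at 1426 ± 149 normalized counts in DMSO and 1324 ± 47.9 in CA4 (95% interval of the log2 fold change -0.33 to 0.13), and IFITM2 at 539 ± 47.0 and 491 ± 39.2 (SD, n = 3 each; -0.40 to 0.13). IFITM1 and IFITM2 share annotated exon bases, 32.5% of IFITM1 and 22.7% of IFITM2, so their split is uncertain. Summed, the 3 IFITM genes had 1982 ± 196 normalized counts with DMSO against 1839.7 ± 84.7 with CA4 (SD, n = 3 each).

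A few members were highest in CA4 replicate 3 alone. IFI6, a mitochondrial and endoplasmic reticulum protein that limits flavivirus replication, had 238, 321 and 238 normalized counts in DMSO and 194, 316 and 468 in CA4, and its promoter holds the 3 cores printed above. BST2 (tetherin), which holds budding virions on the cell surface, had 21.2, 33.7 and 21.8 and then 17.4, 26.9 and 51.3. IFITM1 had 20.3, 17.8 and 13.3 and then 18.4, 14.6 and 40.1. For IFI6, BST2 and IFITM1 the other CA4 libraries lay within or close to the DMSO range, and the limma adjusted p-values were 0.718, 0.832 and 0.679. XAF1, an untested pro-apoptotic gene, was also highest in that library, with 5.79, 2.80 and 0.95 and then 6.77, 3.37 and 22.3. The 3 endothelial markers PECAM1, VWF and CDH5 were also highest in that library, with a summed level of 3224 against 1304 and 1616 in the other CA4 libraries and 944 to 1427 in DMSO. Their part in these values was not tested. IFI27 had at most 5.57 normalized counts, also in that library.

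**Figure D3:**
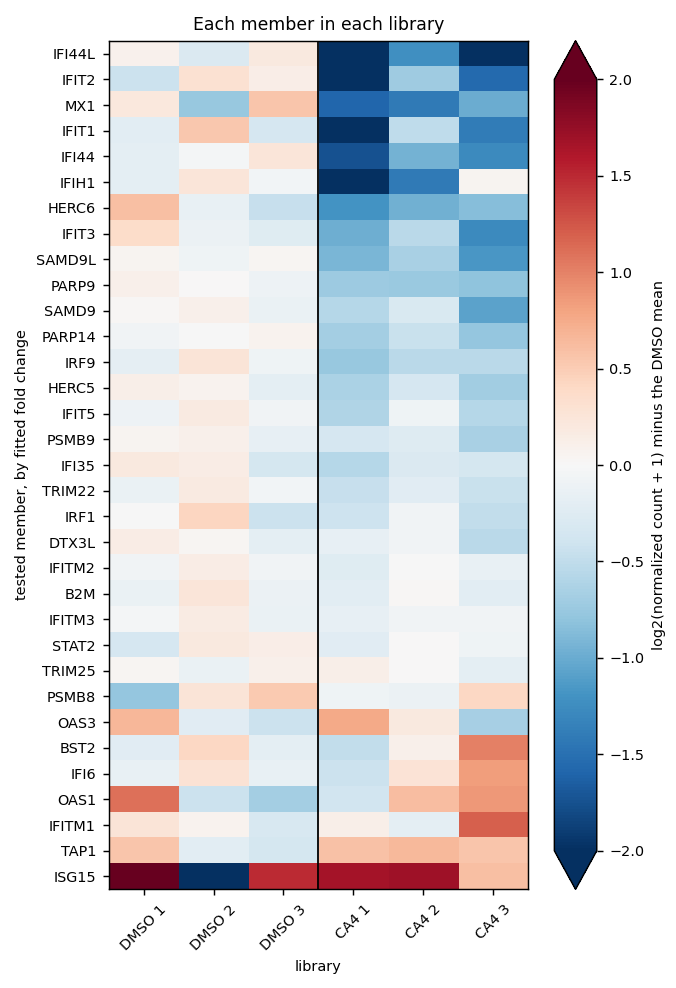
Each tested member (rows, ordered by fitted fold change) in each library (columns), as the difference of log2(normalized count + 1) from the DMSO mean of that gene, with the colour scale ending at 2 on either side. The upper rows are blue in all 3 CA4 columns, except IFIH1 in CA4 replicate 3, and most are palest in CA4 replicate 2. The lower rows hold IFI6, BST2 and IFITM1, darkest in CA4 replicate 3, and ISG15, whose row is set by the library listed at 0.

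The 3 CA4 libraries were not equally low. The median difference of the 33 tested members from their DMSO mean was -0.50, -0.22 and -0.54 on the log2 scale in CA4 replicates 1, 2 and 3, against 0.03, 0.10 and -0.11 in the DMSO libraries. CA4 replicate 2 was the highest CA4 library in 21 of the 33 tested members, and in 12 of the 15 whose groups did not overlap. The inflammatory NF-kB targets were also least displaced in that library, with median differences of 1.34, 0.88 and 1.13 in CA4 and 0.41, -0.01 and -0.31 in DMSO.

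No interferon ligand, receptor or JAK-STAT gene was called by limma, edgeR or DESeq2. Of 21 interferon ligand genes, 17 were listed at 0 in all 6 libraries, among them IFNB1, IFNG and IFNL1 to IFNL3, where a 0 allows up to 3 reads in a library, or 2.80 to 3.37 normalized counts. None of the 3 ligands that could be tested had an unadjusted limma p under 0.05, and DESeq2 gave 2 of them no adjusted p. IFNE, a type I interferon expressed constitutively in some epithelia, had 25.1, 34.6 and 45.6 in DMSO and 79.3, 38.1 and 84.7 in CA4 (limma adjusted p = 0.226). All 11 receptor and JAK-STAT genes were tested, 2 had an unadjusted limma p under 0.05, and their median log2 fold change was 0.07. IFNAR1 and IFNAR2 had log2 fold changes of -0.19 and 0.14.

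Of 15 sensors, adaptors and IRFs that act before interferon is made, 11 were tested and 2 fell, 18.2% against the 1.97% of all genes. IFI16, a nuclear DNA sensor, went from 810.3, 871 and 759.7 normalized counts in DMSO to 491, 541 and 504 in CA4 (log2 fold change -0.67, SE 0.10, limma adjusted p = 0.0167). TLR3, the endosomal receptor for double-stranded RNA, went from 122, 108 and 155 to 45.4, 67.3 and 45.7 (log2 fold change -1.27, SE 0.25, limma adjusted p = 0.033). DHX58, a relative of IFIH1, was fitted lower without passing (-0.66, limma adjusted p = 0.0725), and TICAM1, the adaptor of TLR3, higher (0.51, limma adjusted p = 0.07). DESeq2 called DHX58 lower and TICAM1 higher (adjusted p = 0.0398 and 0.0184). Of the 7 tested negative regulators limma and edgeR called none, and 4 had an unadjusted limma p under 0.05, against 23% of all genes. SOCS3, an inhibitor of JAK kinases, had the smallest limma p, at 197, 321 and 292 and 142, 156 and 135 (log2 fold change -0.87, limma adjusted p = 0.0553), and DESeq2 called it lower (adjusted p = 0.00416).

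Of 52 interferon-inducible genes outside the set 41 were tested, 3 fell (7.32%, against 1.97% of all genes) and 1 rose (against 2.97%), with a median log2 fold change of 0.01. Those that fell were IFI16, already counted above, APOL6 (-0.75, limma adjusted p = 0.0322), an apolipoprotein L family member, and DDX60 (-0.75, limma adjusted p = 0.0438), a helicase linked to RNA sensing. The one that rose was CD274 (PD-L1), the immune checkpoint ligand, which responds to both interferon and NF-kB, from 536, 213 and 291 normalized counts in DMSO to 2537, 1249.9 and 1565 in CA4 (log2 fold change 2.40, SE 0.37, limma adjusted p = 0.0172). The chemokine genes CXCL9 and CXCL10, often strongly induced by interferon, were listed at 0 in all libraries. In the class I antigen presentation list, limma and edgeR called 0 of 14 tested genes, and 1 had an unadjusted limma p under 0.05. NLRC5, the activator of class I genes, had 398, 439 and 455 and then 596, 524 and 669.9, with every CA4 library above DMSO (log2 fold change 0.46, limma adjusted p = 0.0796), and DESeq2 called it higher (adjusted p = 0.0259, with 6.92% of all genes called higher by that tool).

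The inflammatory NF-kB targets, listed for comparison and already known to rise in these data, are the contrast to these lists. Of 25 genes 21 were tested, 11 rose (52.4%, against 2.97% of all genes) and none fell, with a median log2 fold change of 1.09. CXCL8, the neutrophil chemokine, had 487, 429 and 191 normalized counts in DMSO and 3650.4, 1911 and 2850.0 in CA4 (log2 fold change 2.98, SE 0.37, limma adjusted p = 0.0109). The cytokine gene IL6 had 297, 131 and 184 and then 1251, 811 and 1618 (log2 fold change 2.61, SE 0.34, limma adjusted p = 0.0117). ICAM1, an adhesion ligand, had 403, 137 and 124 and then 1551, 696 and 933 (log2 fold change 2.39, limma adjusted p = 0.0347). In the same fit 0 of the 33 tested interferon-stimulated members were called higher, as with edgeR and DESeq2, 1 was fitted higher at an unadjusted limma p under 0.05, and the difference between the 2 lists was not tested as such.

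**Figure D4:**
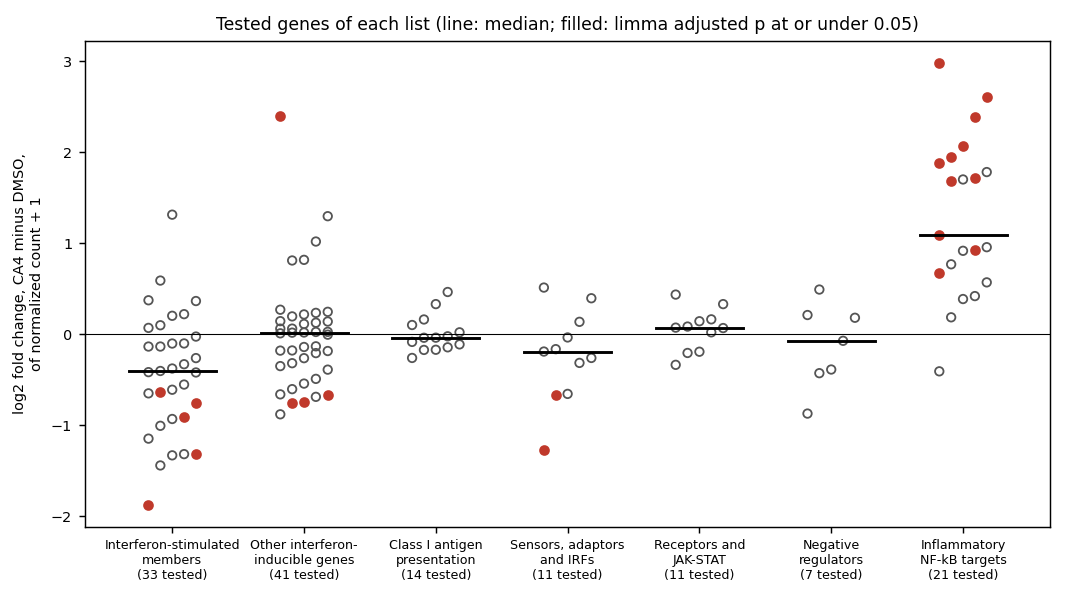
Log2 fold change, CA4 minus DMSO, on the scale log2(normalized count + 1), of every tested gene of the 39-member set, 5 interferon pathway lists and the NF-kB comparison list, with a line at each median and filled points for an adjusted p of 0.05 or less. The medians are -0.40 for the members, 0.01 for other interferon-inducible genes and 1.09 for the NF-kB targets, and the filled member points all lie below 0. IFI16 stands in 2 of the lists, and the interferon ligand list is not drawn.

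Shares of promoters with each motif are given as counts, and no difference between groups of genes was tested. An ISRE core was present in 4 of the 5 called members, in 9 of 13 with windows among the 15 whose groups did not overlap (69.2%), and in 12 of 17 of the other tested members (70.6%). It occurred in 25 of 39 other interferon-inducible genes (64.1%) and in 1 of 20 NF-kB targets (5%). The NF-kB consensus, searched on both strands, was found in 12 of those 20 targets (60%), in 9 of the 32 members (28.1%), in 17.2% of all tested genes with a window and in 11.3% of all windows. Among members, it was in 1 of the 13 whose groups did not overlap (7.69%) and in 7 of the 17 other tested members (41.2%). The GAS sequence TTCNNNGAA, which can overlap an ISRE, was in 11 of 32 members (34.4%), 8.78% of all tested genes with a window and 7.66% of all windows.

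Many members lie next to each other in the genome: 23 of the 39 fall in 9 groups with gaps of at most 100000 bases. Both genes of the IFI44L-IFI44 group were called, against 1.97% of all genes called lower. In the SAMD9-SAMD9L and PARP9-DTX3L groups 1 of 2 was called and both were fitted lower. The IFIT and HERC genes were all fitted lower, without a limma call. The 95% intervals of HERC5 and of both tested OAS genes spanned 0. Neighbouring genes are not independent observations.

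Count models on the recovered reads gave the same or more calls. With edgeR's quasi-likelihood test 5 members were called lower, the same 5, against 1.82% of all genes. DESeq2 called 9, against 5.39%, adding IRF9, IFIT2, IFIT3 and HERC6 (adjusted p = 0.012, 0.00891, 0.0125 and 0.0363).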

How the data were processed

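PolyA RNA of 6 hTERT RPE1 libraries was sequenced, 3 treated with CA4 and 3 with DMSO. Per the submitters' processing notes, Trim Galore 0.6.6, FastQC 0.12.1, STAR 2.7.9a, Salmon 1.8.0, DESeq2 1.44.0 and the build GRCh38 were used, with no role or order given. The annotation release and the use of strand are not given in the sources used here. The deposited table holds a signal, the authors' normalized counts, in which gene reads were divided by a scaling factor of each library. In each column 100% of the values were whole multiples of the value of 1 read (tolerance 0.01), which recovered 19524936 to 22538004 reads per library. A value of 0 allows up to 3 reads, a limit that covers counting error only. Of 38900 IDs, 35803 had a symbol in the supplied table of gene names and 29 more in GENCODE 29, and 17103 had no read.

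Genes with a mean of at least 10 over the 6 libraries were tested, 13928 in all. On log2(normalized count + 1), a scale that understates the change of low genes, limma 3.58.1 in R 4.3.3 fitted treatment as the only term, with empirical Bayes moderation and a mean trend. Two-sided p-values were adjusted by Benjamini-Hochberg over all tested genes at a threshold of 0.05. Errors are SDs over 3 libraries, or limma's standard errors and 95% intervals. Alternatives were pseudocounts of 0.1 and 5, other filters, 3 scalings, 2 variance models, edgeR 4.0.16 and DESeq2 1.42.0 on the recovered reads, a replicate block, and fits without each library in turn. On simulated data from the 13928 genes with 200 changed 2-fold, limma found 69% of the changed genes with 8% false calls. The same shares were 66% and 7.04% in edgeR and 82% and 21.2% in DESeq2.

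The members and all lists were chosen with earlier results of these data known, so their counts are descriptions beside the share of all genes, with no test over a list. Library values are given for the 12 members with the smallest adjusted p, and values of other members singled out in the text were added after they were seen. From each other list up to 4 genes with the smallest adjusted p were eligible, and others named there were also added later. Promoter sequences came from RefSeq (GRCh38.p14) for 32 members, and gene positions and overlaps from GENCODE 29 (GRCh38). 1 listed gene of class I presentation was not analysed here.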

Additional observations from a re-analysis of the deposited data

How the results depend on the processing

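The 5 called members stayed lower under all 18 alternatives, and all 5 were called under both pseudocounts, the other filters, the 3 scalings, the robust variance prior and edgeR. Without a variance trend 1 member and 103 genes in all were called, and DESeq2 on the recovered reads called 9 members and 1613 genes. The median log2 fold change of the members ran from -0.50 with equal library totals, where that of all genes was -0.11, to -0.33 with quantile normalization. Equal totals called 6 members and 802 genes, of which 34.79% were higher, against 60.03% of 688 with the authors' scaling, and quantile normalization gave 56.81%. Leaving out each library in turn gave 0 to 5 members called lower, 0 to 1 called higher and 84 to 990 genes called. These fits test 5 libraries, and the cause of the further drop was not tested.

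The replicate number as a block called 11 members lower, against 8.16% of all genes, and 2397 genes in all. It added IRF9, IFIT1, IFIT2, IFIT3, IFIT5 and TRIM22. Same-numbered libraries correlated in their deviations at 0.202, 0.159 and 0.0588, and the labels do not say what a number shares, so the numbers were not taken as pairs. On the simulated data, which hold no effect of the replicate number, the block recovered 59% of the changed genes and 11.9% of its calls were false. A block could gain nothing there, so that simulation does not show whether it suits these libraries. CA4 replicate 3 correlated slightly better with DMSO replicate 2 (0.0741) than with its own number.

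Depth limits members with a mean under 10 normalized counts, namely MX1 in CA4 and the 6 untested genes. With 3 libraries a group, limma found 69% of the simulated 2-fold changes. Smaller changes were not simulated, so the share of them that was missed is not known.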

Other observations

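Of the other interferon-inducible genes that limma did not call, 6 fitted lower and 3 fitted higher had an unadjusted limma p under 0.05, a selection made after the values were seen. Among all 13928 tested genes, 1261 fitted lower and 1248 fitted higher were uncalled with such a p. Called or not, 13 of the 41 tested genes of the list had it, against 23% of all genes. NMI, the partner of IFI35, had 229.9, 203 and 189 normalized counts in DMSO and 109, 151 and 134 in CA4 (log2 fold change -0.66, limma adjusted p = 0.0771). SP100, a nuclear body protein, had 1487, 1824 and 1659.8 with DMSO and 1178, 1414 and 1204 with CA4 (-0.39, limma adjusted p = 0.0925). PLSCR1, IL15, DDX60L and SP110 had log2 fold changes of -0.54, -0.88, -0.69 and -0.49, with limma adjusted p-values between 0.108 and 0.132. WARS1, the tryptophanyl-tRNA synthetase that interferon gamma induces, was fitted higher (0.82, SE 0.28, limma adjusted p = 0.134) with overlapping groups. DESeq2 called NMI and SP100 lower and WARS1 higher. APOL2, an apolipoprotein L family member, was fitted slightly higher (0.22, limma adjusted p = 0.191). CIITA, the activator of class II genes, had 103, 37.4 and 41.8 with DMSO and 92.8, 169 and 158 with CA4 (limma adjusted p = 0.123), and DMSO replicate 1 stood apart from the other DMSO libraries as it did for TAP1. Over all 41 tested genes of that list, every CA4 library was below every DMSO library in 10 and above in 4, against 13.4% and 14.3% of all tested genes.

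Among all genes called lower that have a promoter window, 15 of 223 held an ISRE core (6.73%), against 13 of 318 called higher (4.09%) and 408 of 10369 tested (3.93%). The 15 are 4 members (IFI44L, IFI44, PARP9 and PARP14), TLR3 and DDX60 from the other lists, and DHRS9, TNFSF9, TCF12, CDH18, SLC2A12, EDNRA, USF1, ATF7IP and GNG2.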
